A study of Mus musculus with 4 samples.

Results

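The m6A writer complex genes are 9 mouse genes, Mettl3, Mettl14, Wtap, Virma, Zc3h13, Cbll1, Rbm15, Rbm15b and Mettl16, and every listed METTL3 peak whose centre lay inside one of them or within 10 kb was collected from both METTL3 ChIP-seq peak lists. The lists held 353 and 281 peaks, of which 4 in replicate 1 and 5 in replicate 2 met this rule, and all of them lay inside Mettl3 or Mettl14. Chromatin came from wild-type mouse embryonic stem cells of the C57BL/6 strain, whose medium held LIF, CHIR99021 (a GSK3 inhibitor) and PD0325901 (a MEK inhibitor). The 2 immunoprecipitations (IP) used a rabbit antibody against METTL3, and the 2 inputs were sonicated chromatin without antibody. All 4 libraries shared genotype, strain and medium. No cells lacking METTL3 and no control antibody were analysed here. Nothing in the labels states whether separate cultures were used for the replicates, and SDs may therefore measure technical spread. The p-values come from exact tests of tag counts, which allow for counting error only and not for spread between replicates.

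The writer complex places a methyl group on the N6 position of adenosine in nascent RNA. METTL3 holds the active site and METTL14 pairs with it to hold the RNA substrate, while WTAP anchors the pair to an accessory part in which VIRMA is the scaffold, ZC3H13 helps to keep the complex in the nucleus, CBLL1 (HAKAI) is of the ubiquitin ligase family and RBM15 and RBM15B bind RNA. METTL16 is a separate methyltransferase that modifies U6 small nuclear RNA and the transcript of Mat2a, the gene of the enzyme that makes the methyl donor. In embryonic stem cells m6A is known for its part in the exit from pluripotency.

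Depth was similar in the IPs, with 22246555 and 21793898 tags, and lower in input 2 than in input 1 (about 14900000 against 24800000). The caller expected 1.902 and 1.831 IP tags in a window of peak size, and its threshold for a site was a score of 14 tags. The lowest score in either list was 14, while the IP tags recovered from the heights went down to 12, with 42 peaks of replicate 1 and 18 of replicate 2 under 14. A median listed peak held 18 and 19 IP tags. Heights below are the authors' normalised tag counts, in IP tags per 10000000 tags, so that 14 tags are a height of 6.29 in replicate 1 and 6.42 in replicate 2. Intervals are exact 95% intervals and cover counting error only.

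Both catalytic-core genes held METTL3 peaks in both replicates, and no other subunit had one. Of the 9 genes, 2 had a shared peak, one that overlapped between the lists by at least 1 bp. Among all 21896 protein-coding genes, 0.575% had a shared peak centre within 10 kb, 1.03% had a replicate 1 peak there and 0.804% a replicate 2 peak. Among the 3922 protein-coding genes of 10 to 20 kb, the length range that holds Mettl3 (13.9 kb) and Mettl14 (17.7 kb), the share with a shared peak was 0.306%. Mettl14 was the sole protein-coding gene with 3 shared peaks within 10 kb (0.00457% of genes), and 4 genes had 2 or more (0.0183%).

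Mettl3 lies on chromosome 14 from 52294841 to 52308741 (mm10) on the minus strand, and RefSeq (GRCm38.p6) gives it a start site at 52305124. The window from 250 bases before to 50 bases after that site, chr14:52305075-52305374, is printed on the minus strand because the distances of the Mettl3 peaks are counted from it and no listed peak overlapped it. Capitals mark CCGGAAG, a motif of the ETS family of transcription factors, searched on both strands.
Mettl3 start window: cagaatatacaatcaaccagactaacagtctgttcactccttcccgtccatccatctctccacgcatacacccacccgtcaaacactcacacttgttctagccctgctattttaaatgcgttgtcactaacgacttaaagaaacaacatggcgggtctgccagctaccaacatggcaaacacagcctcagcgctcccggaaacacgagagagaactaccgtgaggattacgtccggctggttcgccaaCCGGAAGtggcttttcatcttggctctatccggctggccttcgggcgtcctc
The motif was present in 8.86% of the 32851 windows of this table. It was in 4 of the 10 member windows, which belong to 3 of the 7 members that had one, Mettl3, Cbll1 and Zc3h13. The 2 Zc3h13 windows overlap each other, as do those of Wtap. The share of all genes with the motif was not computed. The member windows held 17 to 48 CpG dinucleotides, with 17 at Mettl3, against a median of 7 over all windows. The windows behind this median and the motif share were not limited to protein-coding genes, for which neither value was computed. Mettl14 and Virma had no entry in the table.

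In Mettl3, the gene of the catalytic subunit and of the antibody's own target, the shared peak lay 7.49 kb downstream of the start site in both replicates, at 52297546 to 52297716 in replicate 1 and 52297548 to 52297716 in replicate 2. Its centre was 2.79 kb from the lower-coordinate end of the gene, which for this minus-strand gene is the 3′ end. It was 11.1 kb from the other end, which lies upstream of the start site used here. The height was 13.5 in replicate 1 (30 IP tags, interval 9.10 to 19.3) and 11.5 in replicate 2 (25 tags, 7.42 to 16.9), or 12.5 ± 1.41 (SD, n = 2). In replicate 1, 82.2% of the listed peaks were lower, and in replicate 2 70.8%.

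Input at this site differed more than the IP did. Replicate 1 had 7 input tags (interval 2.81 to 14.4) where an even spread over the caller's genome size gave 2.12, and 13 of its 353 peaks had 7 or more. Replicate 2 had 1 input tag (0.0253 to 5.57) where an even spread gave 1.25. The fold over input was therefore 4.78 in replicate 1 (2.06 to 12.9) and 17.1 in replicate 2 (2.79 to 700). With tags and library totals of both replicates summed, it was 6.19 (2.93 to 15.1). The authors' focus ratio, which is high where tags of each strand lie on the side of the centre that a single point source gives, was 0.739 in replicate 1 and 0.897 in replicate 2, so that 16.1% and 88.6% of the peaks of each list were lower.

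A further Mettl3 peak was listed in replicate 2 alone, at 52299919 to 52300087. It stood 5.12 kb downstream of the start site and 2.37 kb upstream of the shared peak in the direction of the gene. Its 14 IP tags gave a height of 6.42 (3.51 to 10.8), with 80.1% of its list higher and 6.41% lower, and its focus ratio was 0.895. It had no input tag, as had 62 of the 281 peaks of that list (22.1%). If the input is set to a floor of 3 tags, without regard to the counting error of the IP, this site was 3.18-fold above input. That value rests on the chosen floor and is not a lower bound, and the exact interval began at 2.26. In replicate 1 no peak was listed there, and the tags of sites outside the list were not analysed here.

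**Figure D1:**
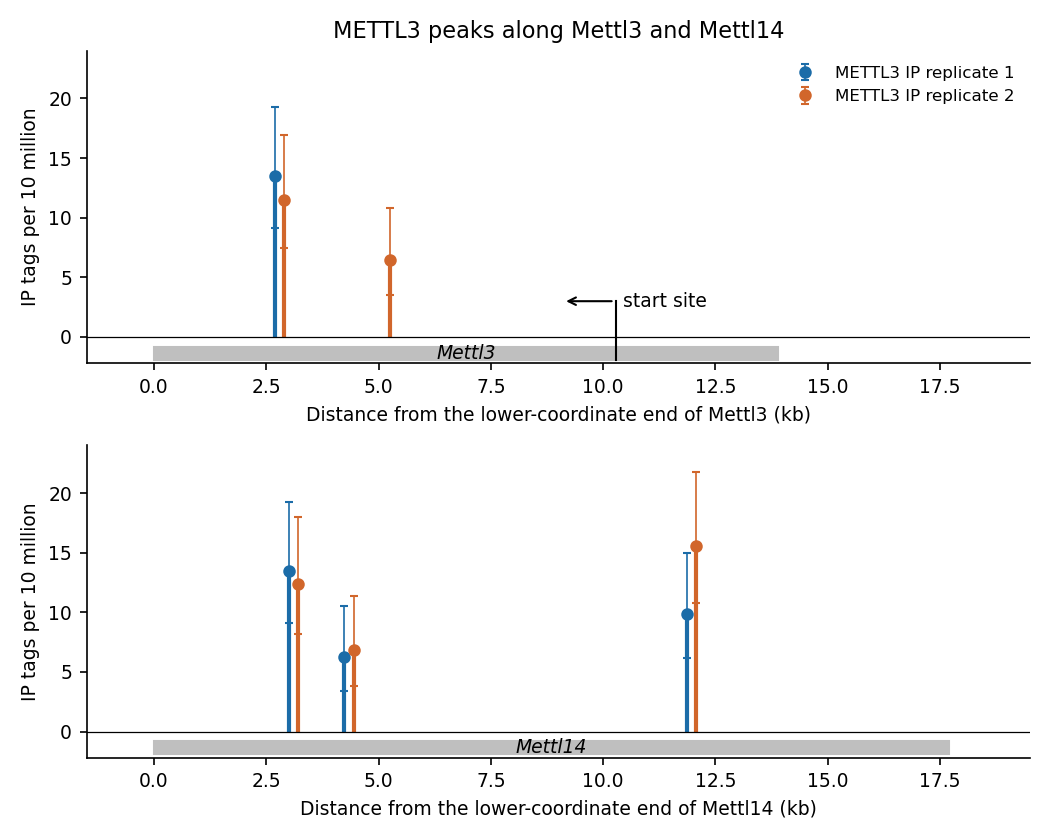
Height of each listed peak (IP tags per 10000000, y axis) against its distance from the lower-coordinate end of Mettl3 (top) and Mettl14 (bottom) in kb (x axis). Grey bars are the genes, the arrow is the Mettl3 start site, blue and orange are replicates 1 and 2 (drawn slightly apart), and error bars are exact 95% counting intervals; all peaks lie inside the genes and the Mettl3 peaks lie 7.49 and 5.12 kb downstream of its start site.

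Mettl14, the gene of the partner subunit, held 3 peaks, each found in both replicates. Among all listed peaks, 55.2% in replicate 1 and 69.4% in replicate 2 were shared. Mettl14 spans 123368295 to 123385990 on chromosome 3. In order of position, the peaks of replicate 1 were at 123371321 to 123371491, 123372546 to 123372716 and 123380179 to 123380349, and those of replicate 2 at 123371321 to 123371489, 123372553 to 123372721 and 123380176 to 123380344. Their centres lay 3.11, 4.34 and 12.0 kb from the lower-coordinate end in replicate 1. The first and the second were 1.23 kb apart in both lists, and the third followed 7.63 kb after the second in replicate 1 and 7.62 kb in replicate 2.

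The first Mettl14 peak had heights of 13.5 (30 IP tags, interval 9.10 to 19.3) and 12.4 (27 tags, 8.16 to 18.0), or 12.95 ± 0.778 (SD, n = 2). Its 30 tags in replicate 1 equalled those of the Mettl3 peak, though the authors' total tags column gives 31 here and 30 there. Input was at 0 tags in replicate 1, an absence shared by 23 of the 353 peaks (6.52%), and at 3 tags in replicate 2 (0.619 to 8.77). With the floor of 3 input tags, the IP of replicate 1 was 11.2-fold above input, which is not a lower bound. The exact interval, from 0 input tags, began at 8.52. In replicate 2 the peak was 6.14-fold above input (1.89 to 31.6). The caller's own fold therefore ranked it 4 of 353 in replicate 1, where a substituted count stands for the input, and 231 of 281 in replicate 2.

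The second Mettl14 peak was the lowest of the shared peaks in these genes. Its heights were 6.29 (14 tags, interval 3.44 to 10.6) and 6.88 (15 tags, 3.85 to 11.4), or 6.58 ± 0.417 (SD, n = 2). Of the shared peaks in the series, 3.08% were lower. Input tags numbered 0 and 1. With the floor of 3 input tags, the IP of replicate 1 was 5.20-fold above input, which is not a lower bound, and the exact interval began at 3.70. The IP of replicate 2 was 10.2-fold above input (1.57 to 431).

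The third Mettl14 peak differed most between replicates in height, at 9.89 (22 tags, interval 6.20 to 15.0) and 15.6 (34 tags, 10.8 to 21.8), or 12.7 ± 4.04 (SD, n = 2). It ranked 110 of 353 in replicate 1 and 32 of 281 in replicate 2. Input tags numbered 1 and 2, and the folds were 24.5 (3.97 to 1013) and 11.6 (2.97 to 99.6). Summed over both replicates, the first, the second and the third Mettl14 peak were 17.1-fold (5.57 to 85.5), 26.1-fold (4.33 to 1067) and 16.8-fold (5.47 to 84.0) above input, and these intervals overlap each other and that of the Mettl3 peak.

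**Figure D2:**
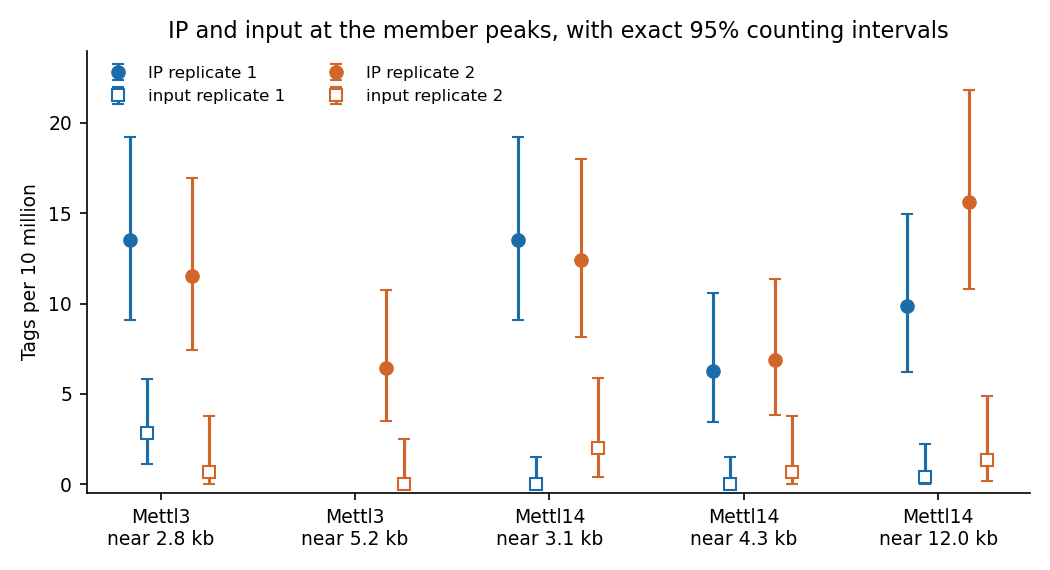
IP (filled circles) and input (open squares) in tags per 10000000 (y axis) at the 5 sites in Mettl3 and Mettl14, named by distance from the lower-coordinate end of the gene (x axis), with exact 95% counting intervals for replicates 1 (blue) and 2 (orange). The input squares run from 0 to 2.82 and the IP circles from 6.29 to 15.6; the Mettl3 site near 5.2 kb was listed in replicate 2 alone.

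The order of the heights was not resolved by their counting error. In replicate 1 the order was the first Mettl14 peak and the Mettl3 peak at the same 30 tags, then the third and the second Mettl14 peak. In replicate 2 it was the third and the first Mettl14 peak, the shared Mettl3 peak, the second Mettl14 peak and the further Mettl3 peak. Every neighbouring pair in these orders had a ratio of tags whose interval included 1, as for the third over the second Mettl14 peak in replicate 1 (1.57, interval 0.769 to 3.32) or the shared Mettl3 peak over the second Mettl14 peak in replicate 2 (1.67, 0.845 to 3.40). The highest over the lowest was 2.14 (1.10 to 4.37) in replicate 1 and 2.43 (1.27 to 4.90) in replicate 2, with the pair chosen for its difference.

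The replicates were compared at each of the 195 shared peaks with an exact binomial test of IP tags, two-sided, with library totals as offsets, which compares these libraries and not conditions. No peak passed an adjusted p of 0.05 (0.0% of the 195; 3 had an unadjusted exact p under 0.05). The tested peaks had to be listed in both replicates, which left out 158 peaks of replicate 1 and 86 of replicate 2. The test therefore does not measure agreement over all listed peaks. At the Mettl3 peak the height of replicate 2 over replicate 1 was 0.851 (interval 0.480 to 1.5; exact p = 0.591). At the first, the second and the third Mettl14 peak this ratio was 0.919 (0.525 to 1.60), 1.09 (0.492 to 2.45) and 1.58 (0.896 to 2.83), with exact p of 0.792, 0.854 and 0.109. All adjusted exact p-values were 1, but the intervals leave room for differences of up to 2.83 times at the third peak.

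The fold over input was compared between replicates in the same way, with Fisher's exact test adapted to the library totals. Again 0.0% of the 195 shared peaks passed an adjusted p of 0.05, and 3 had an unadjusted exact p under 0.05. The limit to peaks listed in both replicates applies here too. The first Mettl14 peak, with 30 IP and 0 input tags against 27 and 3, had an exact p of 0.0520 (adjusted exact p = 1). The Mettl3 peak, with 30 and 7 against 25 and 1, had an exact p of 0.420, and the second and the third Mettl14 peak had 0.411 and 0.613.

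**Figure D3:**
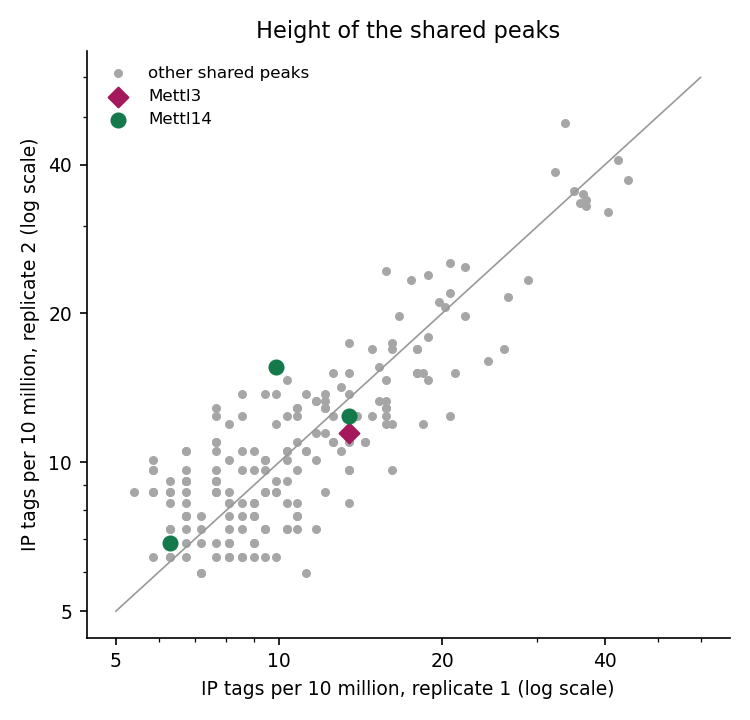
Height in replicate 2 against height in replicate 1 (IP tags per 10000000, both axes on a log scale) for the 195 shared peaks, with the Mettl3 peak as a diamond and the 3 Mettl14 peaks as green circles; the line marks equal heights. The Mettl3 peak and 2 of the Mettl14 peaks lie near the line, and the third Mettl14 peak lies above it at 9.89 and 15.6.

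By mean height 3 of the 4 shared member peaks were above the median of the 195 and 1 was near the low end. The first Mettl14 peak (12.95) had 71.8% of the shared peaks below it, the third (12.7) 70.8%, the Mettl3 peak (12.5) 66.2% and the second Mettl14 peak (6.58) 3.08%, with a median of 9.995 and a range of 6.13 to 41.5 over all shared peaks. The 4 peaks were 2.05% of the shared peaks and held 1.77% and 1.92% of the IP tags in them. Heights come in steps of single tags, and 5 other shared peaks had the same mean height as the Mettl3 peak. The next height above it was 12.7, at 3 peaks, of which 1 was inside Sh2d4b and the others were 94.0 kb from Kcnk2 and 478 kb from Ofcc1. The next below was 12.45, at a peak inside Myo1f and one 8.56 kb from Lifr, the gene of the LIF receptor. The first Mettl14 peak had the same mean height as 1 other shared peak. It stood between peaks 458 kb from Nr5a2 (13.2 ± 1.06, n = 2), an orphan nuclear receptor gene, and 90.9 kb from Rybp (12.9 ± 4.64). The second, at 6.585, had the same mean height as 2 others. It stood between one in Sgk1 (6.81 ± 0.0990) and one 41.6 kb from Sik1 (6.58 ± 0.226). The third had the same Rybp peak above it and the 3 peaks of 12.7 below.

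Position was closely repeated at Mettl3 and Mettl14. The centres of the Mettl3 peak were 1 bp apart between replicates, and those of the first, the second and the third Mettl14 peak 1, 6 and 4 bp apart. Over all 195 shared peaks the median was 27 bp, and 39 peaks (20.0%) lay within 6 bp, a limit set after these values were seen. Focus ratios were 0.911 ± 0.0453 (SD, n = 2) at the first, 0.796 ± 0.0191 at the second and 0.903 ± 0.0255 at the third Mettl14 peak and 0.818 ± 0.112 at the Mettl3 peak, against a median of 0.832 over the shared peaks.

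**Figure D4:**
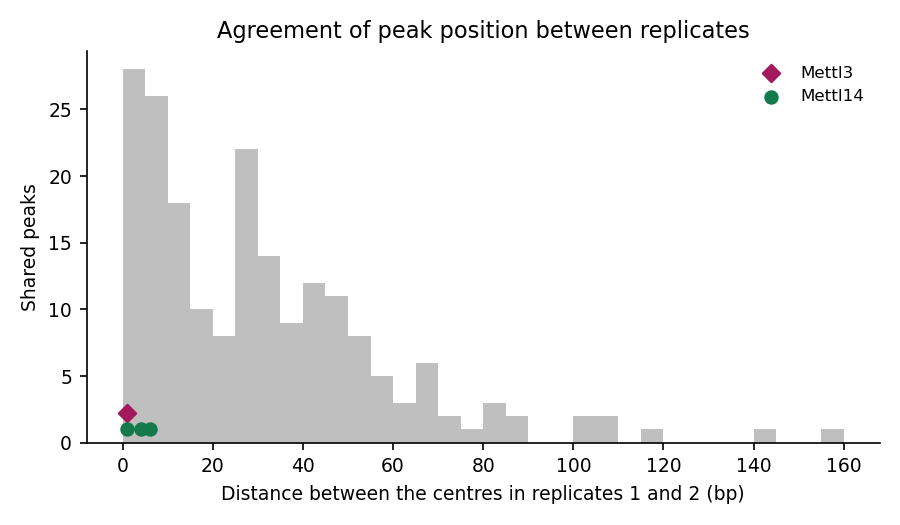
Number of shared peaks (y axis) by the distance in bp between their centres in replicates 1 and 2 (x axis, bins of 5 bp), with the Mettl3 peak as a diamond and the Mettl14 peaks as circles placed at their distances. The 4 marked peaks lie between 1 and 6 bp, where the median of the 195 shared peaks is 27 bp.

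The density of IP tags around these sites was in or under the range around other peaks. The caller's fold over the surrounding 10 kb was 15.3 and 13.6 at the shared Mettl3 peak, 16.3 and 17.0 at the first Mettl14 peak, 6.34 and 8.44 at the second, 12.9 and 20.95 at the third and 7.0 at the further Mettl3 peak. Dividing the IP tags by these folds gave 1.71 to 2.21 surrounding tags per peak width in replicate 1 and 1.59 to 2.00 in replicate 2, with medians over all listed peaks of 2.10 (quartiles 1.84 and 2.43) and 1.95 (1.73 and 2.32). The clonal ratio, by which the caller checks for stacked identical tags, was 0.67 to 0.71 at the member peaks, with medians of 0.70 and 0.68 over the lists.

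Neighbouring genes lay close to both. Tox4, a chromatin protein gene on the plus strand, overlaps the 3′ end of Mettl3 by 669 bp, and the shared Mettl3 peak was 2.12 kb from it. Sall2, a zinc finger gene, lies on the other side, 2.44 kb from Mettl3. Sec24d, a gene of the COPII coat of secretory vesicles, ends 2.65 kb from Mettl14, so the first and the second Mettl14 peak were also within 10 kb of it (5.76 and 6.99 kb in replicate 1). Sec24d is for that reason one of the 4 genes with 2 or more shared peaks. The others were Mettl14, Thada, with peaks of 36.3 ± 5.94 and 15.2 ± 0.707 (SD, n = 2) inside a gene of 276 kb, and Plekhf2, with 6.58 ± 0.417 inside a gene of 19.0 kb and 6.57 ± 0.870 at 6.57 kb from it. Whether the peaks in Mettl3 and Mettl14 fall on exons or introns was not analysed here.

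The other 7 subunits and writers had no listed peak inside the gene or within 10 kb. The scaffold gene Virma came nearest, with a replicate 1 peak of height 9.44 at 115 kb, which was nearer to Gem (38.8 kb), and a replicate 2 peak at 472 kb. Mettl16 had its nearest peaks at 1452 and 5311 kb. The adaptor gene Wtap had no peak within 100 kb in either list. Zc3h13, which lies on chromosome 14 as Mettl3 does, had its nearest peak at 2945 kb in both lists, inside Tnfsf11. Rbm15, on chromosome 3 with Mettl14, had it at 3455 kb inside Bcl2l15, Rbm15b at 3023 and 5839 kb, and the ubiquitin ligase family gene Cbll1 at 4142 kb in both. The median of these 7 distances was 2945 kb in replicate 1 and 3455 kb in replicate 2, beside medians of 2656 and 3224 kb over all protein-coding genes on chromosomes with a peak.

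An absence from the lists is not an absence of tags. Sites with a caller's score under 14 tags were not listed, and of 804 and 778 sites above that threshold 442 (55.0%) and 492 (63.2%) were removed by comparison with input and are not in the lists. With 0.575% of protein-coding genes holding a shared peak within 10 kb, a list of 7 or 20 genes without one is near the background.

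None of 20 other genes of the m6A pathway had a peak within 10 kb, in either list, where 1.03% and 0.804% of protein-coding genes had one. These were the other methyltransferase genes Mettl5 and Zcchc4 (ribosomal RNA) and Pcif1 (the cap-adjacent adenosine), Mat2a and Mat2b of methyl donor synthesis, the demethylase genes Fto and Alkbh5, and 13 genes of m6A-binding or m6A-sensitive proteins, Ythdf1, Ythdf2, Ythdf3, Ythdc1, Ythdc2, Igf2bp1, Igf2bp2, Igf2bp3, Hnrnpa2b1, Hnrnpc, Rbmx, Fmr1 and Elavl1. The nearest were replicate 1 peaks 108 kb from Igf2bp1 and 115 kb from Fto, which in replicate 2 had their nearest peaks at 5676 and 365 kb. Mat2a had peaks at 184 and 415 kb. Hnrnpc, on chromosome 14, had the shared Mettl3 peak itself as its nearest, 194 kb away in both replicates.

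**Figure D5:**
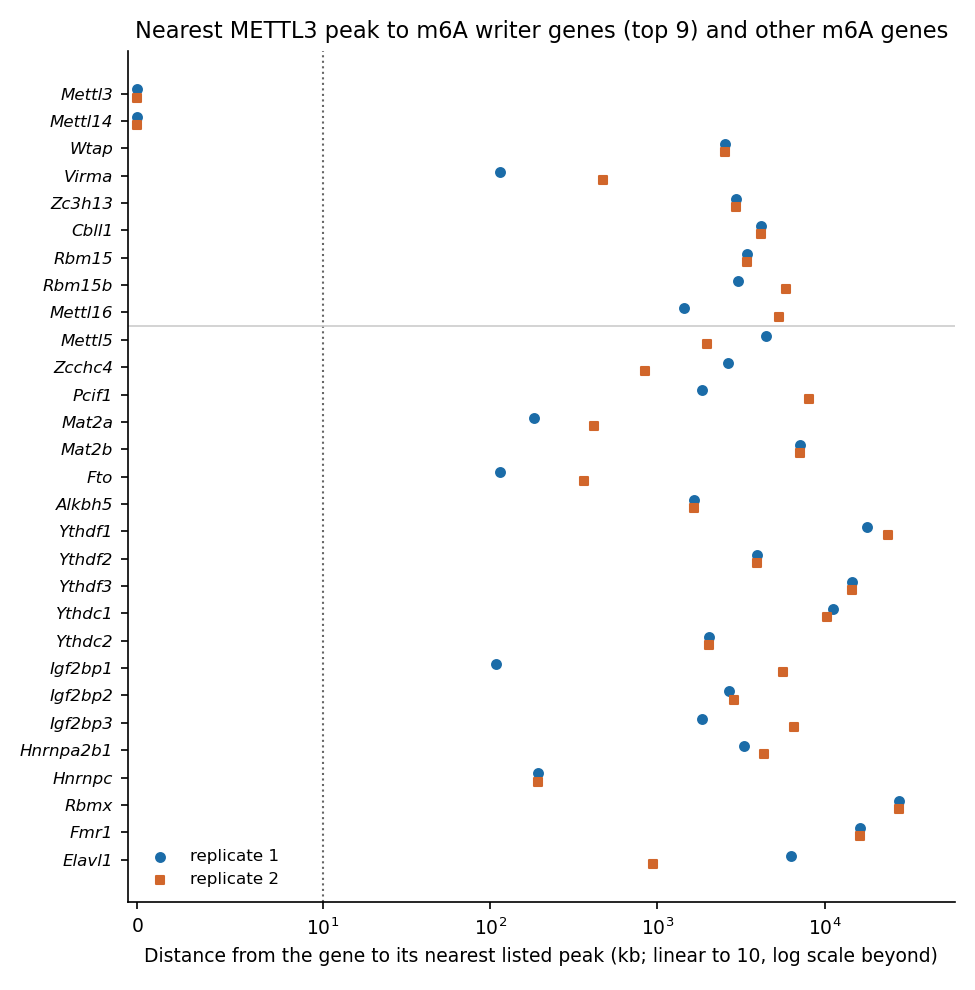
Distance in kb from each gene to its nearest listed peak (x axis, linear up to 10 kb and on a log scale beyond) for the 9 writer genes (top) and 20 other m6A genes (bottom), in replicate 1 (circles) and replicate 2 (squares); the dotted line marks 10 kb. Mettl3 and Mettl14 stand at 0, with a peak inside the gene, and the other 27 genes lie beyond 100 kb.

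Start sites of genes were rarely under a METTL3 peak in these lists. Of the windows from 250 bases before to 50 bases after a start site of a protein-coding gene, 4 of the 353 peaks of replicate 1 overlapped one (1.13%), as did 2 of the 281 of replicate 2 (0.712%). None of the 9 listed peaks in Mettl3 and Mettl14 was among them, with the windows of 17491 protein-coding genes searched and none for Mettl14.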

How the data were processed

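METTL3 ChIP-seq of mouse embryonic stem cells gave a peak list for each of 2 IP libraries. Named without settings in the submitters' processing notes are mm10, HOMER, Bowtie 1.2.2, Trimmomatic 0.38 and CASAVA. Per the file headers, HOMER's findPeaks (factor style) called each IP against the input of its number, not on pooled replicates, at a false discovery rate of 0.001, a Poisson p-value of 0.0001 over input and over the local 10 kb and a fold of 1, with at most 1 tag per position. Deposited heights (normalised tag count) are a signal per 10000000 tags. The total tags of replicate 1 are a count by the authors, while in replicate 2 that column, like the input column of replicate 1, is scaled signal. The deposited focus ratio is a fraction, and the deposited findPeaks score, the fold ratio over input and local signal, the clonal ratio and the p-value are the authors' own per peak, used to describe and filter peaks.

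IP tags were recovered from the normalised tag count and lay within 0.107 tags of a whole number, and input tags within 0.0463. In replicate 1 the total tags column differed by up to 2 tags at 25 peaks. Where input was 0, the caller's substituted value is not a measurement. Genes, strands and start windows came from RefSeq (GRCm38.p6, the mm10 assembly), and no exon annotation or genome sequence was used. Coordinates are 1-based. Intervals are exact (Clopper-Pearson for folds and ratios, Poisson for tags). The 2 exact tests between replicates ran on all 195 shared peaks with Benjamini-Hochberg adjustment and were tested on simulated data. Folds over input have no p, since peaks were called for them. The peak lists hold no expression values, so the labelled cell type was not checked against markers.

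The members, lists, rules and alternatives were chosen with earlier results of these data known. Named genes were the members, listed m6A genes nearest to a peak, genes nearest to member peaks, protein-coding genes with 2 or more shared peaks and neighbours in height. Python 3.11.15, numpy 2.4.6, pandas 2.3.3, scipy 1.17.1 and matplotlib 3.10.9 were used.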

Additional observations from a re-analysis of the deposited data

How the results depend on the processing

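Counts of peaks and genes were recomputed with the gene body alone and with distances of 5, 20, 50 and 100 kb, with stricter folds, with other definitions of a shared peak and without METTL3 IP replicate 1 or 2; a stricter p-value was tried on the peak counts of each replicate only. With both lists kept, the members with a shared peak numbered 2 under each alternative except folds of 8 or more in both lists. That setting left 1, Mettl14, since the fold at Mettl3 was 4.78 in replicate 1. With either replicate left out, members with any listed peak in the other list were counted instead, and these numbered 2. Other m6A genes with a shared peak numbered 0 under the same alternatives. That count could not have changed, since none of these 20 genes had a listed peak within 100 kb in either replicate. The gene body and distance settings could not change the member counts either. All member peaks lay inside Mettl3 or Mettl14, and the nearest peak to any other member was 115 kb away. Folds of 4 or more could not remove a member peak, as the lowest fold among them was 4.78. Stricter settings can only lower a count, and with a replicate left out no peak can be shared between lists. Leaving out replicate 1, which had 7 of the 8 input tags there, moved the fold over input at the Mettl3 peak from 6.19 to 17.1, outside its interval of 2.93 to 15.1. The folds at the first and the second Mettl14 peak went from 17.1 to 6.14 and from 26.1 to 10.2 without replicate 1, within their intervals. With 1 tag added to each input, the 4 folds were 4.95 at Mettl3 and 10.3, 8.71 and 10.1 at Mettl14. Of 69 recomputed values, 67 kept within the replicate SD, the interval or 1.5 times of the reported ones, or on the same side of the test's threshold. These 67 include the counts that could not change and the counts with a replicate left out, so their share does not measure stability. A fold without a replicate could not be computed where that replicate's partner had no input tag, at the first and the second Mettl14 peak. No paired analysis was possible because IP and input were compared by folds with intervals and no test, as the peaks were called for that difference; each replicate's fold already used the input of its own number. Folds rest on 0 to 7 input tags per site, which makes their intervals wide.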
